A study of Mus musculus with 11 samples.

Results

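The naive baseline consisted of 3 dorsal root ganglion (DRG) libraries, the wild-type (WT) control mice, out of 11 libraries in the series. They were taken by their labels, genotype WT and treatment Control, and all 36670 gene rows of the table (36589 gene symbols) were described in them. The libraries are called mice 1, 2 and 3 by their replicate numbers, of which 1 and 2 were labelled male and 3 female. The other groups were WT mice given paclitaxel (PTX, 2 males and 1 female, sampled 4 weeks after PTX), Gpr37l1 knockout (KO) controls (2 males and 1 female) and PTX-treated KO mice (1 male and 1 female). The study describes adult littermates on a C57BL/6 background, from a knockout line started in mixed B6 and 129S5 stock, and calls the WT controls naive and uninjured. Which ganglia entered a library, and whether a library pooled ganglia of several mice, is not given in the sources used here. Each library held RNA selected on its poly(A) tail, and the naive libraries carried 52735648, 75538569 and 68821582 estimated counts (54914928 to 80348732 in the other 8). Replicate numbers are those of the sample descriptions. The sample titles number the PTX-treated KO male 1 and female 2, where the descriptions give 2 and 3. By the descriptions the labelled female was replicate 3 in every group, so a difference between the sexes and one tied to that number cannot be told apart. KO control 3, labelled female, had 0.05 FPKM of Xist, the RNA that silences an X chromosome in female cells, and 0.03 FPKM of the Y-linked Eif2s3y. Its Xist level did not match its label, whereas its Eif2s3y level did. The tests and overlap counts between the sexes are therefore given with and without it, apart from those of muscle genes.

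The DRG holds the cell bodies of the sensory neurons that carry touch, position, temperature, itch and pain from the body to the spinal cord. Large neurons with thick myelinated axons serve touch and position and are rich in neurofilaments. Small neurons include peptidergic nociceptors, which release peptides such as CGRP, and nonpeptidergic nociceptors such as those with the receptor Mrgprd. Satellite glial cells (SGCs) wrap each cell body, and Schwann cells wrap the axons, with or without myelin. In bulk RNA, fewer cells of a type and less RNA per cell cannot be told apart.

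Naive DRG expressed a broad set of genes, with its RNA concentrated in few of them. Levels are given as FPKM, fragment counts scaled for transcript length and library depth, so genes of different length can be compared. A mean of at least 1 FPKM over the 3 mice was reached by 13121 gene symbols (13031, 13024 and 13225 in mice 1, 2 and 3), of which 11833 were protein-coding. A mean of 10 FPKM was reached by 4539 genes, 100 FPKM by 347 genes and 1000 FPKM by 27 genes. Those 347 genes held 48.8% of all FPKM, and those 27 genes held 24.2%. The 100 highest genes held 35.8 ± 2.68% (SD, n = 3) of the FPKM, with 38.9% in mouse 1, 34.5% in mouse 2 and 34.0% in mouse 3.

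Transcripts of the mitochondrial genome led the ranking of single genes. The 37 genes of mitochondrial DNA held 12.8 ± 1.10% of the FPKM (SD, n = 3), with 11.5%, 13.4% and 13.5% in mice 1, 2 and 3. They held 3.78 ± 0.0932% of the estimated counts, which are not scaled for transcript length. Of the 30 highest genes, 12 were mitochondrial, 10 were nuclear protein-coding genes, 6 were unprocessed pseudogenes, 1 was annotated as a ribosomal RNA and 1 as a microRNA. The highest mean was that of mt-Co1, a catalytic subunit of cytochrome oxidase, at 6482, 7443 and 7094 FPKM in mice 1, 2 and 3. The ATP synthase subunit gene mt-Atp6 (3565, 3613 and 3516 FPKM) and mt-Cytb of respiratory complex III (3281, 3324 and 3549 FPKM) differed little between mice.

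The 6 pseudogenes were copies of mitochondrial genes on chromosome 1, and their levels could not be separated from those of the genes they copy. In the GENCODE vM21 transcripts, Gm10925 was identical to mt-Atp6 over 678 bases, Gm28661 to mt-Co2 over 681 bases, Gm28437 to mt-Co3 over 783 bases and Gm28439 to mt-Nd4 over 876 bases. Gm29216 differed from mt-Co1 at 1 of 483 aligned bases. The shortest pair shows how completely such rows overlap: Gm10222 (chr1:24612407-24612700, minus strand, GRCm38) repeats 294 bases of mt-Nd4l (chrMT:9877-10173, plus strand), which encodes a small subunit of complex I. The mt-Nd4l transcript follows, with the 3 bases that the annotated copy lacks in capitals.
mt-Nd4l: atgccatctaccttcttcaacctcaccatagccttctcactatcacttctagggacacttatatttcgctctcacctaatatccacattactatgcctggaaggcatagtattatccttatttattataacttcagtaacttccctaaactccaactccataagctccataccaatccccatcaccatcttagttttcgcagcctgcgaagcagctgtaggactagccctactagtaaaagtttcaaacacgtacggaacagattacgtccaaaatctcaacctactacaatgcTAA
The table lists 832, 1716 and 1904 FPKM for mt-Nd4l and 838, 1723 and 1902 FPKM for Gm10222 in mice 1, 2 and 3. Neither row can be assigned its own reads, and both were lower in mouse 1 than in mice 2 and 3. The 6 copies together held 4.91 ± 0.336% of the FPKM (SD, n = 3).

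The means next below mt-Co1 rested on mouse 1. CT010467, an annotated ribosomal RNA on chromosome 17, had 14835 FPKM in mouse 1 against 2647 and 2899 FPKM in mice 2 and 3. Gm23935, annotated as a microRNA on chromosome 16, had 12929 FPKM against 1952 and 2060 FPKM. Its annotated transcript has 57 bases, and the transcript of Gm24270 on chromosome 9 is the same in all 57; the sequence is shown because a single short sequence stands behind a row among the highest means.
Gm23935 and Gm24270: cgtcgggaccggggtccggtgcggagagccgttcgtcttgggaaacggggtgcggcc
Gm24270 was listed at 278, 47.6 and 47.3 FPKM, so both rows were highest in mouse 1, and how reads were divided between them is uncertain. FPKM of a row this short rises steeply per read, and the whole class annotated as microRNA held 1.96% of the FPKM but 0.0378% of the counts.

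Among nuclear protein-coding genes, tubulin genes, Sncg and a neurofilament gene led. Tuba1a, an alpha-tubulin, had 2347, 2354 and 1841 FPKM in mice 1, 2 and 3. Sncg, gamma-synuclein, had 1648, 1229 and 1379 FPKM, and Tubb3, the neuronal beta-tubulin, had 1436, 1556 and 1144 FPKM. The neurofilament light chain gene Nefl had 1263, 1372 and 1248 FPKM. Hsp90ab1, a constitutive chaperone, had the smallest coefficient of variation of the 30 highest nuclear genes (1.59%), at 1063 ± 16.9 FPKM (SD, n = 3). The neuronal deubiquitinase gene Uchl1 had 1039 ± 137 FPKM, and Apoe, which SGCs express strongly, had 892 ± 184 FPKM. Calca, which encodes CGRP, was the highest neuropeptide gene, at 794 ± 175 FPKM. All 30 genes had a coefficient of variation below 25% (1.59 to 22.0%, median 10.3%), and 27 of the 29 neighbouring pairs in this order overlapped between mice.

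**Figure D1:**
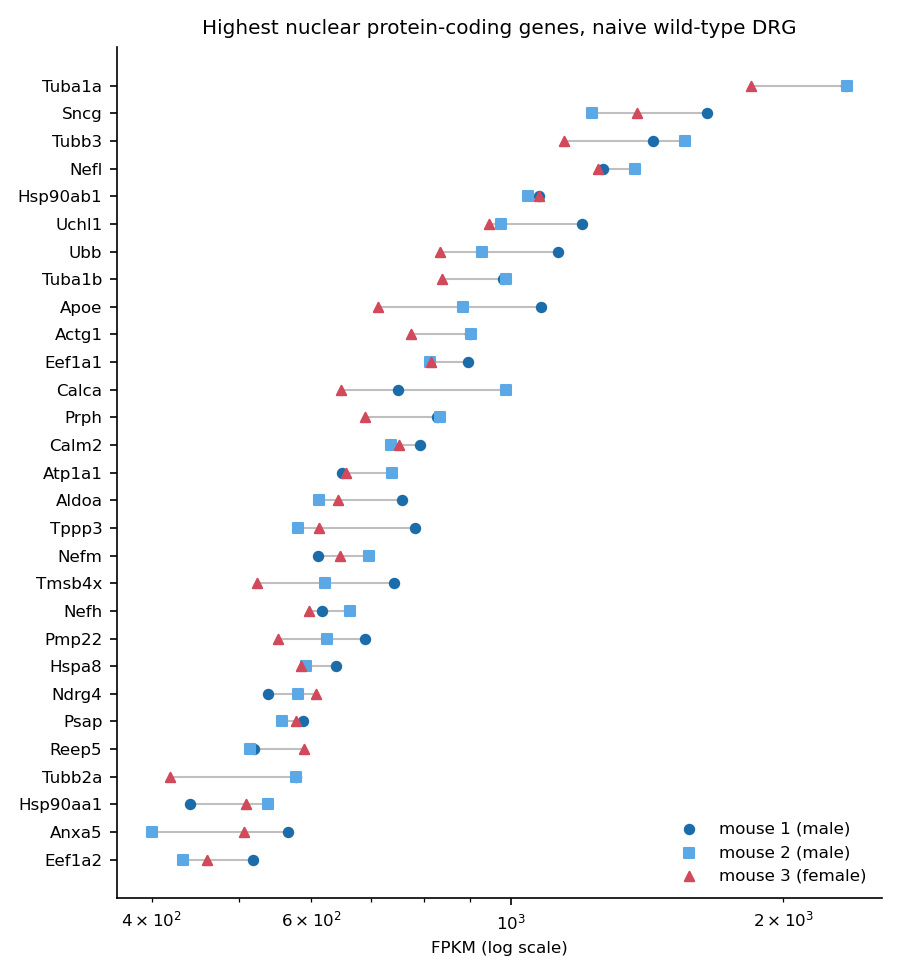
FPKM (log axis) of 29 of the 30 nuclear protein-coding genes with the highest mean in naive WT DRG, 1 point per mouse, with a grey line from the lowest to the highest mouse. Tuba1a leads at a mean of 2181 FPKM and Eef1a2 closes the list at 471 FPKM. Calca has the widest relative spread, with a coefficient of variation of 22.0%.

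Neurons were represented by all 17 pan-neuronal genes listed, each above 10 FPKM on average. Their summed level was 6961, 6593 and 5913 FPKM in mice 1, 2 and 3, a coefficient of variation of 8.20%. Prph, peripherin, the intermediate filament of small neurons, had 827, 834 and 689 FPKM. Advillin (Avil), an actin-binding protein known as a marker of peripheral sensory neurons, had 306, 302 and 281 FPKM. Pou4f1, a transcription factor that specifies sensory neurons, had 35.0, 36.1 and 40.7 FPKM, and Isl1, its partner in that role, had 14.8, 22.1 and 19.5 FPKM. Prdm12, needed for nociceptors to form, had 54.9, 58.0 and 73.0 FPKM and was the highest of the sensory transcription factors listed. In that list of 16 genes in the table, 11 were highest in mouse 3, against 38.0% of the 13121 genes with a mean of at least 1 FPKM.

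The summed markers of the neuron classes differed in how even they were between the 3 mice. Genes of large A-fibre neurons summed to 3008, 3101 and 3012 FPKM over 16 genes, a coefficient of variation of 1.71%. The 3 neurofilament genes made up most of that sum, so its evenness mainly reflects them. Of the 16 genes, 10 were highest in mouse 3 (38.0% of all genes) and 8 lowest in mouse 2 (29.96%). Within that list Pvalb, the calcium buffer of proprioceptors, was lower in mouse 2 (42.5 FPKM) than in mice 1 and 3 (122 and 106 FPKM). Peptidergic nociceptor genes summed to 1170, 1557 and 1002 FPKM over 13 genes, and 10 of them were highest in mouse 2 (29.6% of all genes). Trpv1, the capsaicin receptor, had 36.7, 55.5 and 41.9 FPKM, and Tac1, the substance P precursor, had 70.0, 94.3 and 59.8 FPKM. Genes of Mrgprd nociceptors summed to 482, 436 and 599 FPKM over 14 genes, and 13 of them were highest in mouse 3 (38.0% of all genes). Mrgprd itself had 26.6, 29.1 and 47.0 FPKM, and its class mate Cd55 had 79.2, 69.0 and 109 FPKM. The ratio of the peptidergic to the Mrgprd sum was 2.43, 3.57 and 1.67, so it was highest in mouse 2 and lowest in mouse 3.

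Rarer neuron classes were also detected. Itch neuron genes summed to 98.7, 125 and 84.0 FPKM over 11 genes, and 7 of them were highest in mouse 3 (38.0% of all genes). Nppb, the peptide of a population of itch neurons, had 12.1, 11.2 and 12.3 FPKM, whereas Nts, which is listed with the same cells, had 42.0, 55.1 and 6.16 FPKM. Without Nts the sum was 56.7, 70.3 and 77.9 FPKM over 10 genes, so the order of the mice in the full sum rested on that gene. Th, the enzyme that marks low-threshold C-fibre mechanoreceptors in DRG, had 33.7, 22.3 and 44.0 FPKM. Trpm8, the cold receptor, was low at 2.29, 2.40 and 3.63 FPKM. Of the 13 sodium channel genes listed, the nociceptor genes Scn10a (87.0, 95.5 and 96.2 FPKM) and Scn11a (86.8, 76.4 and 95.7 FPKM) were the highest.

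Glial marker genes were also expressed at high levels, although sums over chosen genes do not measure a cell type's part of the RNA. SGC genes summed to 2119, 1901 and 1595 FPKM over 18 genes, all with a mean of at least 1 FPKM. After Apoe the highest were S100b (307, 259 and 275 FPKM), a calcium-binding protein of glia, and Fabp7 (221, 223 and 145 FPKM), the fatty acid carrier that marks SGCs. The potassium channel gene Kcnj10, known for clearing potassium around neurons, had 16.0, 22.5 and 14.6 FPKM. Mouse 3 was lowest for 9 of the 18 genes, and for 25.8% of all genes with a mean of at least 1 FPKM. Although the sum was highest in mouse 1, that mouse was highest for 7 of the 18 genes (31.8% of all genes). Mouse 2 was highest for 10 (29.6%). Myelinating Schwann cell genes summed to 1211, 1063 and 972 FPKM over 15 genes, and mouse 1 was highest for 13 of the 15 (31.8% of all genes). They were led by Pmp22 (689, 625 and 552 FPKM) and Mbp (167, 133 and 136 FPKM), both structural proteins of myelin. Ngfr, the p75 neurotrophin receptor listed here for nonmyelinating Schwann cells, had 213, 283 and 202 FPKM. Gfap, a filament gene of reactive glia, had 3.94, 1.31 and 0.22 FPKM, the widest spread in that list.

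Marker lists of other cell types had lower sums than the SGC and myelinating Schwann cell lists, and some were uneven between mice. Fibroblast genes summed to 546, 471 and 607 FPKM over 14 genes and were led by Sparc, a matrix glycoprotein. Endothelial genes summed to 116, 110 and 118 FPKM over 12 genes, and Ackr1, the chemokine-binding receptor of venules, made up more than any other of them, at 62.4, 58.2 and 65.8 FPKM. Macrophage genes summed to 142, 127 and 115 FPKM over 15 genes. Lymphocyte and neutrophil genes summed to 32.6, 85.2 and 36.8 FPKM, with the neutrophil genes S100a8 (5.40, 15.8 and 6.40 FPKM) and S100a9 (14.8, 39.3 and 14.5 FPKM) highest in mouse 2. The T cell genes Cd3e and Cd3d were at or below 0.08 FPKM in every naive mouse. Red cell genes summed to 206, 157 and 295 FPKM. Adipocyte genes summed to 17.1, 6.91 and 37.8 FPKM, and all 9 were highest in mouse 3 (38.0% of all genes), although only 2 of them had a mean of at least 1 FPKM. Spinal cord genes, chosen from oligodendrocytes, astrocytes and central neurons, summed to 9.98, 4.19 and 4.94 FPKM over 15 genes. The oligodendrocyte gene Mog was at 0.33, 0 and 0 FPKM.

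**Figure D2:**
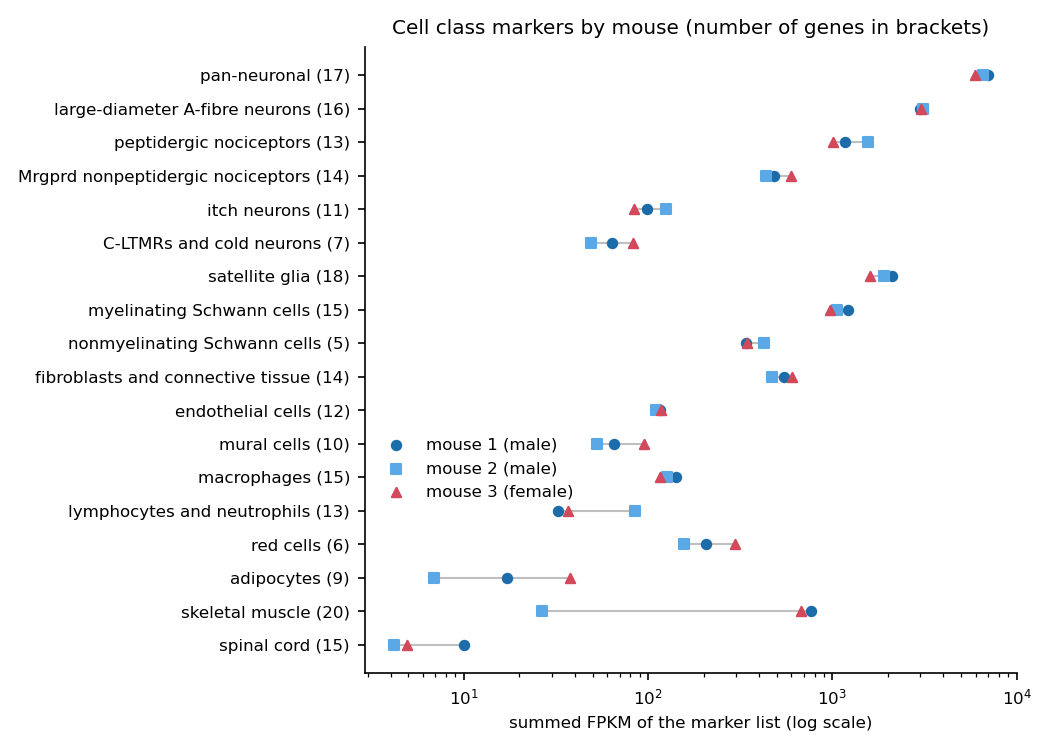
Summed FPKM (log axis) of each marker list in the 3 naive mice, with the number of genes in brackets and a grey line from the lowest to the highest mouse. The pan-neuronal sum lies between 5913 and 6961 FPKM, and the A-fibre sum has a coefficient of variation of 1.71%. Skeletal muscle runs from 26.5 FPKM in mouse 2 to 768 FPKM in mouse 1.

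Hox genes, which keep a record of position along the body axis, were measured for 36 genes, of which 22 had a mean of at least 1 FPKM. The highest were Hoxd1 (12.2, 7.95 and 11.1 FPKM), which is tied to nociceptor wiring, and Hoxa7 (10.3, 10.1 and 11.8 FPKM). Group 10 genes were present, with Hoxa10 at 3.30, 4.72 and 4.91 FPKM and Hoxc10 at 2.28, 3.43 and 4.15 FPKM. Hoxa13 and Hoxd13, of the most caudal group, were at 0 in all 3 mice. Hoxd10 differed between mice, at 0.47, 1.52 and 0.06 FPKM.

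Most genes differed little between the naive mice. The SD of log2(FPKM + 1) over the 3 mice had a median of 0.144, and it was below 0.25 for 10822 of the 13121 genes (82.5%). An SD of at least 1 was reached by 96 genes, which is 0.732% of the genes. In the 3 WT PTX libraries the same genes had a median SD of 0.0808, and 63 of them (0.480%) had an SD of at least 1. In the 3 KO control libraries the median was 0.0819, and 71 genes (0.541%) had an SD of at least 1. Of the 96 genes, 40 also reached 1 in WT PTX, 34 in KO controls, 24 in both and 46 in neither. Mouse 2 was the library that stood apart and lower for 35 of the 96 genes, mouse 3 lower for 18 and mouse 1 higher for 17. These values carry no test, as each group has 3 mice.

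**Figure D3:**
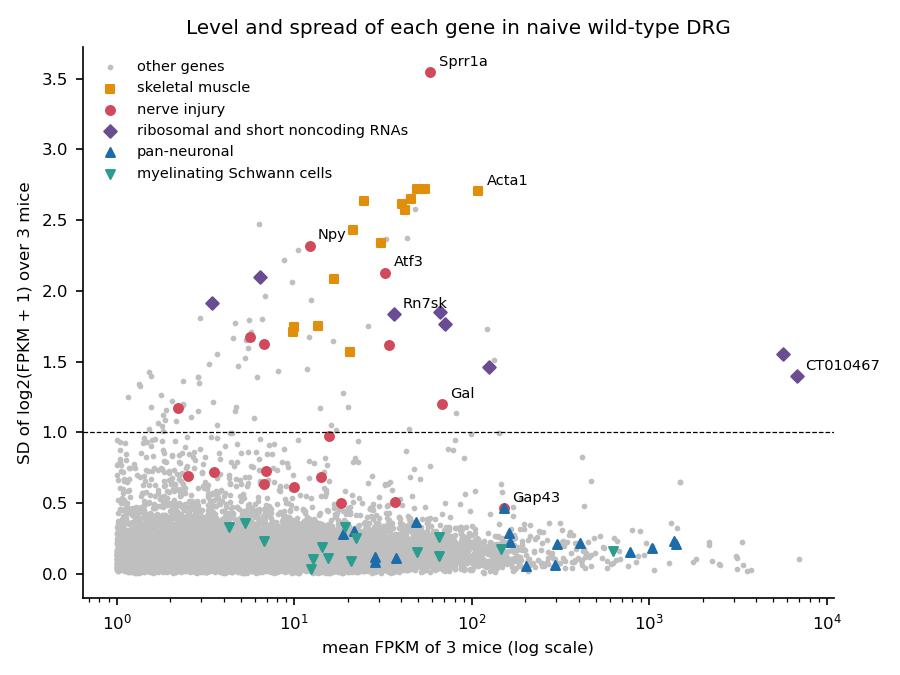
SD of log2(FPKM + 1) over the 3 naive mice against mean FPKM (log axis) for the 13121 genes with a mean of at least 1 FPKM, with 5 gene lists coloured and the dashed line at an SD of 1. Skeletal muscle genes, ribosomal and short noncoding RNAs and part of the nerve injury genes lie above the line. Pan-neuronal and myelinating Schwann cell genes lie below it.

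Of the 20 genes with the largest SD, 10 encode proteins of skeletal muscle, a tissue next to the ganglia. All 20 muscle genes listed were lowest in mouse 2 (29.96% of all genes), and their sum was 768, 26.5 and 680 FPKM in mice 1, 2 and 3. Acta1, skeletal alpha-actin, had 168, 5.28 and 153 FPKM, and the fast troponin gene Tnnt3 had 90.4, 2.13 and 71.5 FPKM. The other 8 libraries spread as widely, with muscle sums from 11.8 to 826 FPKM. Tests of Acta1 called nothing: in edgeR's quasi-likelihood test across 15071 genes its log2 fold change was −2.79 (SE 1.33, adjusted p = 0.391) for PTX against control in WT. For female against male in the other 8 libraries it was −2.33 (SE 0.82, adjusted p = 0.743 in the same test). There 15 of the 17 muscle genes tested were lower in females at an unadjusted p under 0.05 and 0 higher. Of all 15071 genes, 526 were lower and 476 higher at that threshold. Both the Acta1 test and this count include KO control 3, and neither is given without it. The part of muscle tissue in other differences between mice was not tested.

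A set of ribosomal and short noncoding RNA rows stood apart in mouse 1. The 8 rows (CT010467, Gm23935, Gm24270, Rn7s1, Rn7s2, Rn7sk, Rpph1 and Rmrp) were put together after their values were seen. All 8 were highest in mouse 1 (31.8% of all genes), with a sum of 28490 FPKM against 4686 and 5069 FPKM in mice 2 and 3. CT010467 and Gm23935 made up most of that sum, and the 5 rows other than CT010467, Gm23935 and Gm24270 summed to 448, 39.9 and 62.1 FPKM. The sum in the other 8 libraries ran from 1496 to 4848 FPKM. Rn7sk, the 7SK RNA that restrains transcription elongation, had 90.8, 9.73 and 8.66 FPKM. Rn7s1, an RNA of the signal recognition particle, had 165, 14.3 and 21.0 FPKM, and Rpph1, the RNA of ribonuclease P, had 17.6, 1.62 and 0.09 FPKM. Lars2, a nuclear gene for a mitochondrial tRNA synthetase, moved with them at 302, 47.0 and 50.3 FPKM. Mouse 1 also had the fewest counts of the 3, and the part of depth in these levels was not tested.

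Several variable rows had a partner row with opposite values, and whether reads were divided between them was not tested. Adnp, a homeodomain transcription factor gene, had 0.08, 13.4 and 18.2 FPKM, while Gm20716, a row that overlaps it on the same strand over 26127 bases, had 18.1, 8.24 and 0 FPKM. Their sum was 18.2, 21.7 and 18.2 FPKM, with an SD of 0.139 on the log2 scale against 2.29 for Adnp alone. Commd1b had 19.0, 0.06 and 0 FPKM and B3gnt2, which it overlaps on the same strand, had 1.47, 16.7 and 18.1 FPKM, and their sum had an SD of 0.140. The ribosomal protein gene Rpl34 (2.27, 10.1 and 22.9 FPKM) and its processed pseudogene Rpl34-ps1 (247, 96.8 and 22.0 FPKM) lie on different chromosomes and had opposite orders. The SD of their sum depended on the unit, at 1.22 for FPKM and 0.327 for CPM, counts scaled for depth alone (102, 65.3 and 73.4). These pairs were picked after their values were seen. Gapdh, often used as a reference gene, had 7.30, 9.46 and 31.5 FPKM and processed pseudogenes in the table (Gapdh-ps15 and Gapdh-ps16) that its reads may be shared with, so its level is uncertain as well. Syt2, a synaptic calcium sensor gene of large neurons, had 35.3, 3.65 and 38.9 FPKM, and 2 of the other 8 libraries were as low as mouse 2. Of the 96 variable genes, 13 were processed pseudogenes. Their share among all 13121 genes was not counted, so nothing is read from that number.

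A group of genes known to rise in sensory neurons after axon damage differed widely between the naive mice, high in both males and low in the female. Sprr1a, a small proline-rich protein of regenerating axons, had the largest SD of the 13121 genes (3.55 on the log2 scale), with 57.3, 118 and 0.23 FPKM in mice 1, 2 and 3. Atf3, a transcription factor that marks injured neurons, had 34.8, 60.2 and 2.79 FPKM. The neuropeptide genes moved the same way: Gal (galanin) had 49.5, 130 and 24.1 FPKM, Npy (neuropeptide Y) had 16.4, 20.1 and 0.19 FPKM, and Nts had the values given above. Ecel1, an endopeptidase-like gene, had 6.31, 10.3 and 0.27 FPKM. Gpr151, an orphan receptor gene, had 5.61, 13.9 and 0.62 FPKM. Gap43, a growth cone protein that is also high in intact DRG, had 138, 209 and 111 FPKM.

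A list of 20 such genes was written after the naive values were seen, so its counts describe the choice and nothing is read from them. Of its 18 genes with a mean of at least 1 FPKM, both naive males were above the naive female for 17, where 25.8% of the 13121 genes showed that order. Cacna2d1, which encodes the channel subunit bound by gabapentin, was the exception, at 13.9, 26.6 and 14.5 FPKM. Both naive males were above all 8 other libraries for 13 of the 18, against 8.14% of all genes. In the other 8 libraries, the 5 males were above the 3 females without overlap for 7 of the 18, against 2.004% of all genes. Without KO control 3 the same held for 8 of the 18, against 10.1% of all genes. The list's sum was 464 and 787 FPKM in the naive males and 213 FPKM in the naive female, and it ran from 199 to 387 FPKM in the other 8.

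In those 8 libraries Atf3 ran from 5.09 to 19.4 FPKM in the 5 males (median 8.89) and had 1.90, 2.09 and 2.67 FPKM in the 3 females. Sprr1a ran from 1.38 to 27.6 FPKM in the males (median 9.32) and had 0.09, 0.21 and 0.24 FPKM in the females. The sexes did not overlap for either gene, and both were still below the naive males in every one of the 8 libraries. Across 15071 genes, edgeR's quasi-likelihood test called 5 genes between the sexes (0.0332%), all lower in females: Uty, Eif2s3y, Ddx3y, Kdm5d and Gm29650. It did not call Atf3 (log2 fold change −2.22, SE 0.40, adjusted p = 0.361) or Sprr1a (log2 fold change −5.98, SE 1.10, adjusted p = 0.361). Without KO control 3, edgeR called 8 genes, and Atf3 (log2 fold change −1.93, adjusted p = 0.338) and Sprr1a (−5.19, adjusted p = 0.345) were again not among them. Of the 18 injury genes tested with all 8 libraries, 14 were lower in females at an unadjusted p under 0.05 and none higher, where 526 of all genes were lower and 476 higher. Without KO control 3, 10 of the 18 were lower and none higher, where 950 of all genes were lower and 757 higher. With all 8 libraries, 15 of the 17 skeletal muscle genes tested were also lower in females at that threshold and 0 higher. Unlike Atf3 and Sprr1a, the muscle gene Acta1 overlapped between the sexes, at 17.7 to 206 FPKM in males and 0.84 to 41.7 FPKM in females. Whether the 2 sets of genes differ for a common reason was not tested. DESeq2 called 91 genes (0.604%), among them Atf3 (adjusted p = 0.0015) and Sprr1a (adjusted p = 4.68e-06). Without KO control 3, DESeq2 called 306 genes (2.03%), and Sprr1a was among them (adjusted p = 0.00471) whereas Atf3 was not (adjusted p = 0.0656).

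**Figure D4:**
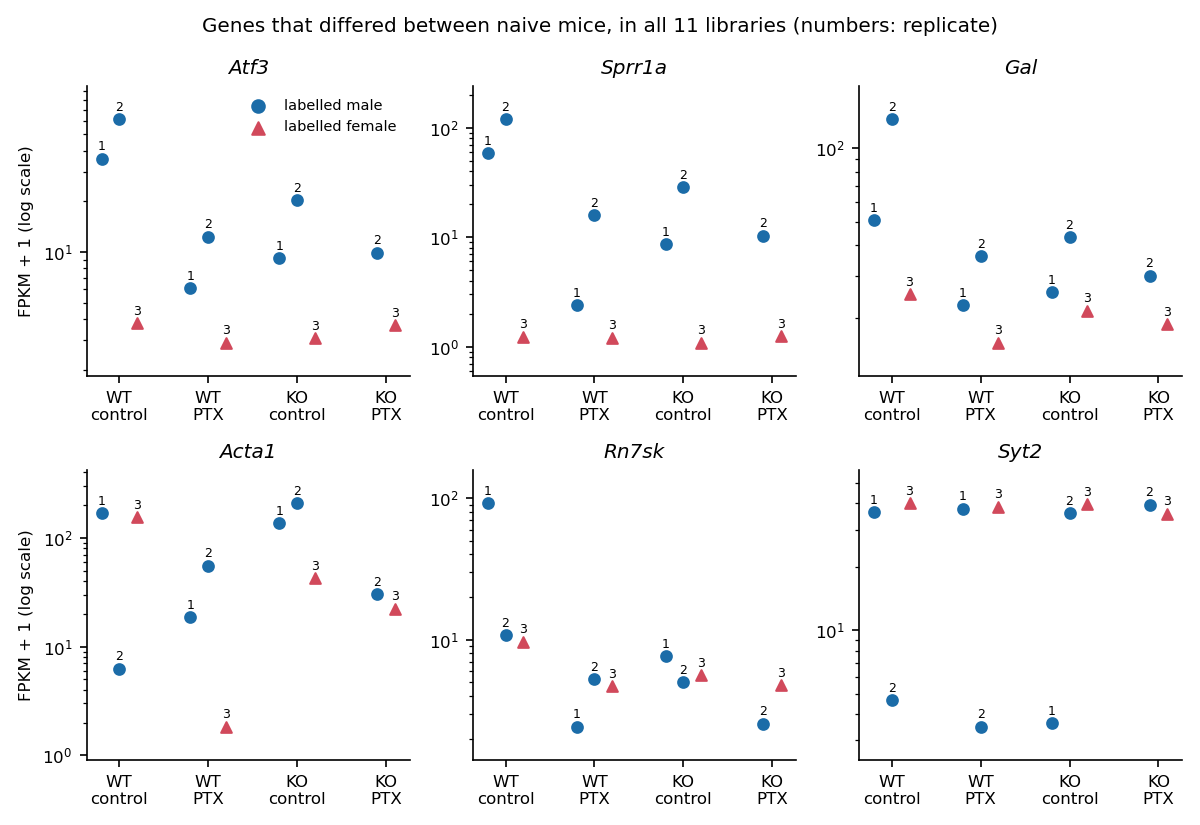
FPKM + 1 (log axis) of 6 genes in the 11 libraries, by group, with males as blue circles, females as red triangles and the replicate number above each point. Atf3, Sprr1a and Gal are highest in the naive males. Acta1 is lowest in WT PTX 3 and naive mouse 2, Rn7sk stands out in naive mouse 1, and Syt2 is low in naive mouse 2, WT PTX 2 and KO control 1.

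The start-site regions of Sprr1a, the gene with the largest SD, and Atf3 are shown for the motifs of injury-related factors. They come from RefSeq (GRCm38.p6) and run from 250 bases before to 50 bases after the start site. AP-1 factors, among them Jun and Atf3, bind TGANTCA, and CREB and ATF factors bind TGACGTCA. Both motifs were searched on both strands and matches are in capitals.
Sprr1a (chr3:92485832-92486131, minus strand): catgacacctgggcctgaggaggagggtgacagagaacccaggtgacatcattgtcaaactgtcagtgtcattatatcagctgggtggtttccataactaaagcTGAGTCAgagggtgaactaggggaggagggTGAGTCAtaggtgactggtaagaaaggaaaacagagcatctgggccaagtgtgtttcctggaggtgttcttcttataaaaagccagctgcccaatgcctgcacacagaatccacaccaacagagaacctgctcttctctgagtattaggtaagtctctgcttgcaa
Atf3 (chr1:191183284-191183583, minus strand): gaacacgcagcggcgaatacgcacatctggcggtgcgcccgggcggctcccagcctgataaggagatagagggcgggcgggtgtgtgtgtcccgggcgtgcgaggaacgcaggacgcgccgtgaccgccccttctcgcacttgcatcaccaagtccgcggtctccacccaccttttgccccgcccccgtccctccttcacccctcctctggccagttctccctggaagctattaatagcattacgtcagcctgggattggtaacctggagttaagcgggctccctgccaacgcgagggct
Sprr1a held TGANTCA at 2 places, starting 146 and 116 bases before the start site, and Atf3 held neither motif exactly. Only exact matches were counted, so ttacgtca in the Atf3 region, a near match to TGACGTCA, was not. TGANTCA was present in 7.81% of the 32851 promoters in the same reference and TGACGTCA in 1.79%. Of the 20 injury genes, 15 had a promoter entry, and 3 of those 15 (Sprr1a, Nts and Anxa10) held TGANTCA and none held TGACGTCA.

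The naive group also served as the control for PTX and for the knockout, so its spread entered both comparisons. For PTX against control in WT, edgeR called 1 of 15071 genes (0.00664%), the clock gene Per3, with 2027 genes at an unadjusted p under 0.05. For KO control against WT control it called 1 gene (0.00664%), the deleted Gpr37l1, with 1140 genes at an unadjusted p under 0.05. The comparisons share the naive mice, so their values are not independent of each other. In edgeR the PTX comparison called 30 genes without naive mouse 3 and 7 without mouse 2. It called 0 without mouse 1, WT PTX 1 or WT PTX 2, with 1531, 1088 and 1714 genes at an unadjusted p under 0.05.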

How the data were processed

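Poly(A)-selected, stranded RNA-seq libraries of DRG, 11 in all and 3 of them naive, were analysed. The authors deposited 1 table of gene rows on mm10 with FPKM values and estimated counts per library. The submitters' processing notes name FastQC, cutadapt, HISAT2 and StringTie, and versions are not given in the sources used here. Rows with the same symbol were summed. Naive levels are means ± SD of 3 mice, and spread is the SD of log2(FPKM + 1) for genes whose mean reached 1 FPKM. Estimated counts, rounded to whole numbers, were tested with edgeR 4.0.16 (R 4.3.3, TMM scaling, quasi-likelihood test) in 3 comparisons, after a test on simulated data. Genes needed a mean FPKM of at least 0.5 over 11 libraries, and the threshold was a Benjamini-Hochberg adjusted p below 0.05. The PTX and knockout comparisons were fitted to all 11 libraries, with sex as covariate. Female against male was fitted to the libraries other than the naive ones, with group as covariate. DESeq2 1.42.0, limma 3.58.1, other filters, a replicate block and leaving out each library were alternatives. Adjusted p-values that DESeq2 did not give were left missing. Copies were aligned with Biopython 1.88. Named genes were the 30 highest, the 20 with the largest SD, the members of the gene lists and up to 5 called genes per direction. Some genes are not reported here and were left out of the lists and figures. Members and lists were chosen with earlier results of these data known. Nothing states whether a library came from 1 animal, so p-values measure the spread between libraries. Coordinates are those of GRCm38, and 36532 of 36670 gene identifiers were found in GENCODE vM21.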

Additional observations from a re-analysis of the deposited data

How the results depend on the processing

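The count of genes at a mean of at least 1 FPKM stayed within 1.5 times its value under every alternative tried. The share of FPKM in the 100 highest genes was 28.2% without mitochondrial genes and 19.9% of estimated counts, and the share of mitochondrial genes was 3.78% of estimated counts, which is the effect of not scaling for length. The median SD was 0.0864 without naive mouse 1, 0.137 without mouse 2 and 0.131 without mouse 3, each over the 2 mice left. Genes with an SD of at least 1 numbered 209 with a pseudocount of 0.1 and 59 with a minimum mean of 5 FPKM, where fewer genes (7345) were tested. On CPM with TMM scaling they numbered 138, of which 89 were among the 96. With mouse 1, 2 or 3 left out they numbered 106, 76 and 112, of which 68, 54 and 63 were among the 96. For PTX against control in WT, DESeq2 called 308 genes, limma 0 (1861 at an unadjusted p under 0.05) and the test without a filter 2, and leaving out libraries gave 0 to 30. For KO control against WT control DESeq2 called 42 genes, and leaving out libraries gave 1 to 4, with 4 without KO control 3 and 2 without naive mouse 2, KO control 1 or KO control 2. Between the sexes DESeq2 called 91 genes (306 without KO control 3, a fit added after seeing the data), and leaving out libraries gave 5 to 9, the most without WT PTX 3, with 8 without KO control 3. The cause of the differences between tools was not tested. Apart from DESeq2, no setting of the tests across all genes called Atf3 (adjusted p 0.12 to 0.818) or Sprr1a (0.0826 to 0.863) between the sexes. Per3 lost its call under limma and without naive mouse 1, WT PTX 1 or WT PTX 2. Deviations of same-numbered samples from their group means correlated at a mean of 0.0537 (−0.25 to 0.24, 15 pairs). Those of different numbers correlated at a mean of −0.0268 (30 pairs). Deviations cancel out within a group, so these means are not independent of each other. All pairs of number 3 were positive (0.0504 to 0.244). Number 3 is also the labelled female, so these values cannot decide whether the numbers paired the samples. With a replicate block the calls numbered 1, 1 and 6. Between the sexes every female is replicate 3, so that block separates only replicates 1 and 2. With 3 mice per group, a coefficient of variation or SD is imprecise, and differences in rows that share reads depend on how reads were assigned.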
